A study of Macaca mulatta with 304 samples.

Results

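The second week after thoracic irradiation was examined as the change from Day 6 to Day 15 in whole blood of the same rhesus macaque (Macaca mulatta). Members were chosen by the animal number in the sample labels: every animal with a sample on both days entered, which gave 24 of the 28 animals and 48 of the 304 samples. The other 4 animals had a Day 6 sample and no Day 15 sample in the files used here. Each dose group, 9.8 Gy and 10.7 Gy to the thorax, held 12 animals (6 females and 6 males), and no unirradiated animals stood beside them, so a change between the days cannot be told apart from one that repeated bleeding or time alone would give. According to the methods all animals were given opioid analgesia over a period that holds both days. Ribosomal RNA had been depleted before sequencing, and reads counted on genes ranged from 3735581 to 22031039 on Day 6 (median 13344835) and from 7738560 to 14356744 on Day 15 (median 11445786.5).

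Whole blood carries RNA of reticulocytes, which are young red cells still rich in hemoglobin and membrane transcripts, of platelets, and of several kinds of white cell with different lifetimes. B lymphocytes are among the most radiation-sensitive of these, neutrophils are short-lived and must be replaced from marrow, and red cells live for months. In such a mixture, fewer cells of a type and less RNA per cell cannot be told apart.

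In the study's supplementary sample list, library names carry a number. Libraries with a number of their own in the lower range are called series A here, and those that all carry the number 0 are called series C. What the number means was not given in the sources used here. Both libraries of an animal always came from 1 series: 20 animals from series A and 4 from series C (B2003, B2005, B2503 and B2504, all at 10.7 Gy). Day 6 libraries of series C were the shallowest, with 3735581 to 5659180 reads. The change from Day 6 to Day 15 differed between the series in 4904 of 13751 tested genes (35.7%; edgeR, interaction of day and series, adjusted p no larger than 0.05 with no fold limit). By that rule, with no fold limit, 2853 genes were higher and 1840 lower on Day 15 than on Day 6 over all animals. Series C held animals of 1 dose only, so that for these 4 animals dose and series cannot be told apart. The Day 6 libraries of B2005 and B2504 stood apart on the first principal component (13.3% of the variance). For the lists that changed most, and for some genes, values in the 20 animals of series A are therefore given beside those of all 24 animals. For other genes, only values over all 24 animals are given. The Day 9 steps and the levels by day are given for all 24 animals only. Summed Y chromosome genes went with the labelled sex in 48 of 48 libraries. The 10 skin and vessel wall genes too low to be tested summed to 0.177 to 13.2 CPM (read counts scaled to a common library size) on Day 6 and 0.387 to 49.9 CPM on Day 15, with medians of 1.64 and 1.21.

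Between the days 480 genes were higher on Day 15 (3.49% of those tested) and 183 were lower (1.33%), where a call needed an adjusted p no larger than 0.05 together with a change of 1.5-fold or more. The median log2 change over all tested genes was 0.05. Changes were small: 23 genes rose and 16 fell by a fold of 2 or more. The values of the days overlapped for every tested gene (0 genes without overlap), and 166 of the 663 changed genes had 1 direction in 90% or more of the animals. In series A alone 643 genes changed, of which 420 were higher (3.05%) and the others lower (1.62%). Most changed genes were in none of the 32 gene lists. Within the lists, red cell and B cell genes stood on the higher side and genes of neutrophils, monocytes and complement on the lower side.

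**Figure D1:**
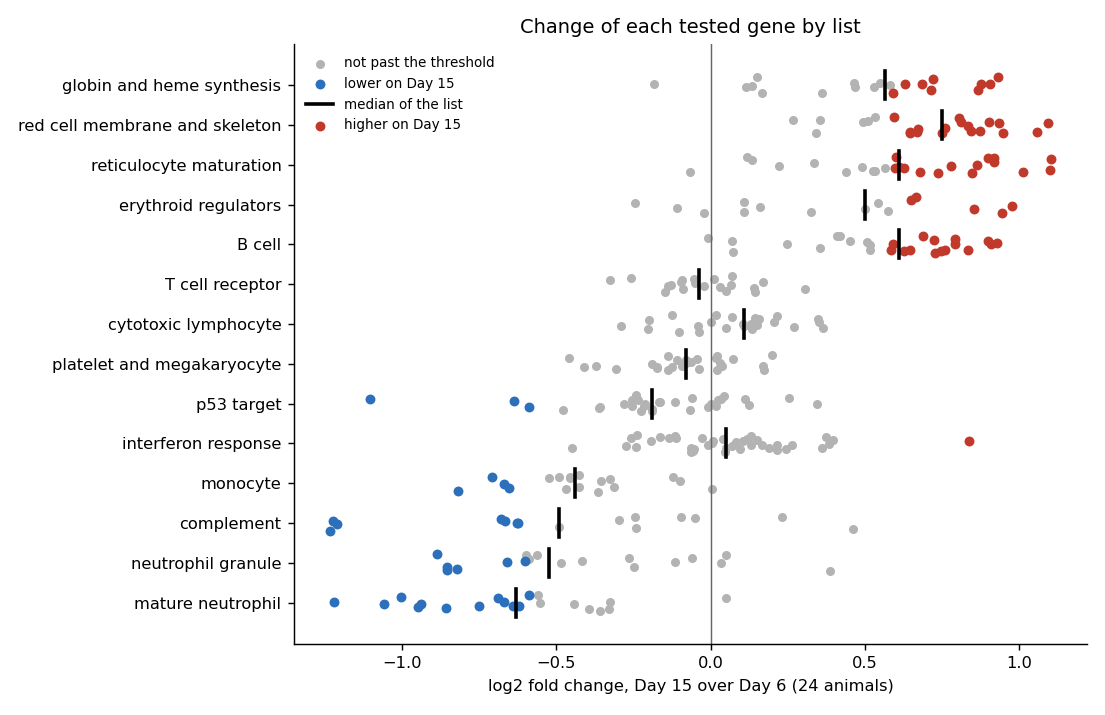
Log2 fold change of Day 15 over Day 6 (x axis) for each tested gene of 14 gene lists (y axis). Red and blue points passed the threshold, grey points did not, and black bars mark list medians. Changed genes of the 4 red cell lists and the B cell list all lie above 0, and those of the monocyte, complement and neutrophil lists all lie below 0.

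Red cell genes rose in all 4 lists that cover them. Among genes of the red cell membrane and its skeleton, 17 of 23 tested rose and 0 fell, with a median log2 change of 0.75. SLC4A1, the band 3 anion exchanger of the red cell membrane, ranged from 177 to 5391 CPM on Day 6 (median 1358) and from 678 to 23627 CPM on Day 15 (median 3153). The days overlapped, and 20 of 24 animals were higher on Day 15. Its log2 change was 1.09 ± 0.21 (SE, n = 24 animals; adjusted p = 0.000342), and 1.07 in series A. The skeleton linker gene DMTN changed by 0.95 ± 0.20 and EPB42, which encodes protein 4.2, by 0.94. EPB41, the protein 4.1 gene and the member with most reads, rose by 0.67 ± 0.17 and lost its call without B2504.

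Of the genes of globin and heme synthesis, 9 of 20 tested rose and 0 fell (median 0.57). ALAS2, the erythroid enzyme that starts heme synthesis, ranged from 3363 to 25624 CPM on Day 6 (median 8991) and from 7592 to 65276 CPM on Day 15 (median 16851). It was higher in 21 of 24 animals, by 0.93 ± 0.20 (adjusted p = 0.000681). HBB, the beta globin gene, rose by 0.90 ± 0.31 (adjusted p = 0.0226) in 19 of 24 animals. In the joint scaling of days used below, HBB had medians of 475 CPM on Day 6 and 758 CPM on Day 15. Those of ALAS2 were 9339 and 17504 CPM. The paper names ribosomal RNA removal and does not say whether globin RNA was removed as well. Whether globin levels varied with library preparation was not tested. HBA, an alpha globin gene whose reads may be split with near-identical copies, rose by 0.88 ± 0.34 (adjusted p = 0.0473), but its change was 1.31 in series A and -2.02 in series C, so its direction depended on the series.

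Among genes of reticulocyte maturation 15 of 25 tested rose and 0 fell (median 0.61). They included UBE2O, a ubiquitin enzyme that helps to clear proteins from reticulocytes (1.10 ± 0.23), SELENBP1 (1.11 ± 0.22) and the antioxidant gene PRDX2 (1.01 ± 0.18, 22 of 24 animals). Of the erythroid regulators 5 of 15 rose and 0 fell (median 0.50): TRIM10, KLF1, EPOR, GATA1 and BCL11A. KLF1, a transcription factor of late red cell development, ranged from 9.48 to 366 CPM on Day 6 (median 104.05) and from 29.3 to 1405 CPM on Day 15 (median 217). It rose by 0.95 ± 0.20 (adjusted p = 0.000824) in 21 of 24 animals. EPOR, the erythropoietin receptor, rose by 0.85 ± 0.16 and GATA1, the master regulator of the lineage, by 0.67 ± 0.17. The GATA1 change was 0.58 in series A, under the fold limit. NFE2, which platelets also express, changed by 0.16 ± 0.16 and did not pass. HDAC11, a histone deacetylase, rose by 1.08 ± 0.24 (adjusted p = 0.000973) in 20 of 24 animals.

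These 4 lists did not move in every animal. The mean change of the membrane list ran from -0.51 (B1504) to 3.43 (B2504) with a median of 0.64, and was above 0 in 20 of 24 animals. In series A it ran from -0.51 to 1.80 and was above 0 in 17 of 20. Without B2504 the counts of genes that rose were 12 for the membrane, 7 for globin and heme, 11 for reticulocyte maturation and 4 for the regulators. In series A they were 15, 7, 14 and 4. List medians in the same order were 0.68, 0.45, 0.64 and 0.31 in series A, and 0.97, 0.90, 0.64 and 0.98 in series C.

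**Figure D2:**
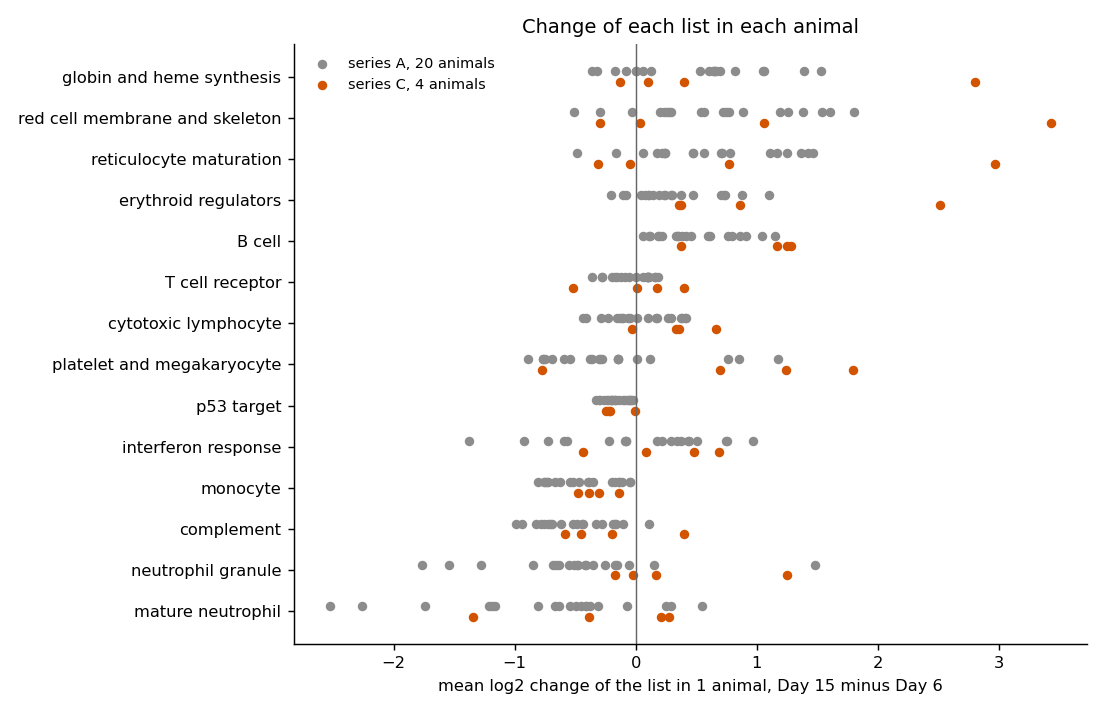
Mean log2 change of each list (y axis) from Day 6 to Day 15 in each animal (x axis). Grey points are the 20 animals of series A and orange points the 4 of series C. B cell means lie above 0 in 24 of 24 animals and monocyte and p53 target means below 0 in 24 of 24, whereas red cell means spread from below 0 to 3.43.

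Since many red cell genes moved together, the 250 bases before the annotated gene start were read from Mmul_10 for 13637 tested genes. AGATAA, the core of the GATA site, was searched on both strands. It was found before 9 of 46 changed red cell genes (19.6%), 11 of 83 tested red cell genes (13.3%) and 934 of all 13637 genes (6.85%). Outside the red cell lists it stood before 3 of 15 changed B cell genes and 2 of 12 changed mature neutrophil genes. Of the changed complement genes 0 of 7 had it. The letters were thus not particular to red cell genes, although these counts are small. The stretches before EPB42 and EPOR are printed to show the letters, in capitals, in their setting. On the strand of EPOR they read as the reverse complement. These examples were chosen after their values were seen, and a match is a description of letters only. The EBF letters CCCNNGGGA stood before 2 of 15 changed B cell genes (13.3%), 2 of 7 changed complement genes (28.6%) and 7.11% of all genes.
EPB42 (chr7:19720927-19721176, minus strand): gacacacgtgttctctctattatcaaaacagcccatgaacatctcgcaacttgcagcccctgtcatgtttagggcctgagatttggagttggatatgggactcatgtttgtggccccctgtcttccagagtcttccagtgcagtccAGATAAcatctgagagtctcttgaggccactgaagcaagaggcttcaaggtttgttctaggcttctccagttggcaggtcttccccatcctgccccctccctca
EPOR (chr19:11144305-11144554, minus strand): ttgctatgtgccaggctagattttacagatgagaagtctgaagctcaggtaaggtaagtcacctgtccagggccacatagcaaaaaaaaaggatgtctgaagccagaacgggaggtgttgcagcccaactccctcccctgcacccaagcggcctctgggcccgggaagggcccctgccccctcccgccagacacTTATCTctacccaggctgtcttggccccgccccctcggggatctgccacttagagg

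B cell genes were higher on Day 15 as well. Of 26 tested genes 15 rose and 0 fell (median 0.61), and the mean change of the list was above 0 in 24 of 24 animals (0.06 to 1.28). In series A 12 rose, and without B2504 13 rose. The list median was 0.53 in series A and 0.97 in series C. FCRL1, an Fc receptor-like molecule of B cells, ranged from 13.2 to 99.1 CPM on Day 6 (median 34.8) and from 20.4 to 181 CPM on Day 15 (median 67.6). It was higher on Day 15 in 24 of 24 animals although the days overlapped, by 0.90 ± 0.10 (adjusted p = 3.16e-07). EBF1, a transcription factor that sets B cell identity, ranged from 6.98 to 65.5 CPM (median 22.7) and then from 13.2 to 91.2 CPM (median 44.8). It rose by 0.91 ± 0.10 in 23 of 24 animals (adjusted p = 6.31e-07). FCRL2 rose by 0.93 ± 0.13 in 24 of 24 animals. PAX5, CD22 and MS4A1, which encodes CD20, rose by 0.83, 0.73 and 0.72. CD37, which other leukocytes share, changed by 0.07 ± 0.07. In the plasma cell list 1 of 16 rose, TENT5C (0.92 ± 0.23), a gene that is also abundant in red cell precursors.

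Among the largest increases outside the lists, 3 genes were higher in every animal. ZNF860, a zinc finger gene, ranged from 1.02 to 9.36 CPM on Day 6 (median 2.78) and from 2.35 to 21.9 CPM on Day 15 (median 6.73), a change of 1.14 ± 0.14 (adjusted p = 1.16e-06). HS3ST1, a heparan sulfate sulfotransferase, rose by 1.03 ± 0.11 and ELFN2 by 0.96 ± 0.11. Among genes named by size (at least 5 CPM, an annotated symbol and 1 direction in 90% of animals), CCDC187 had the largest increase, 1.32 ± 0.21, in 22 of 24 animals. DLGAP1 rose by 0.95 ± 0.13. The other largest increases were PKLR, the red cell pyruvate kinase gene (1.03 ± 0.22), RAB3IL1 (0.96 ± 0.19), the mitochondrial carrier gene SLC25A39 (0.95 ± 0.18) and HYAL3 (0.95 ± 0.19).

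**Figure D3:**
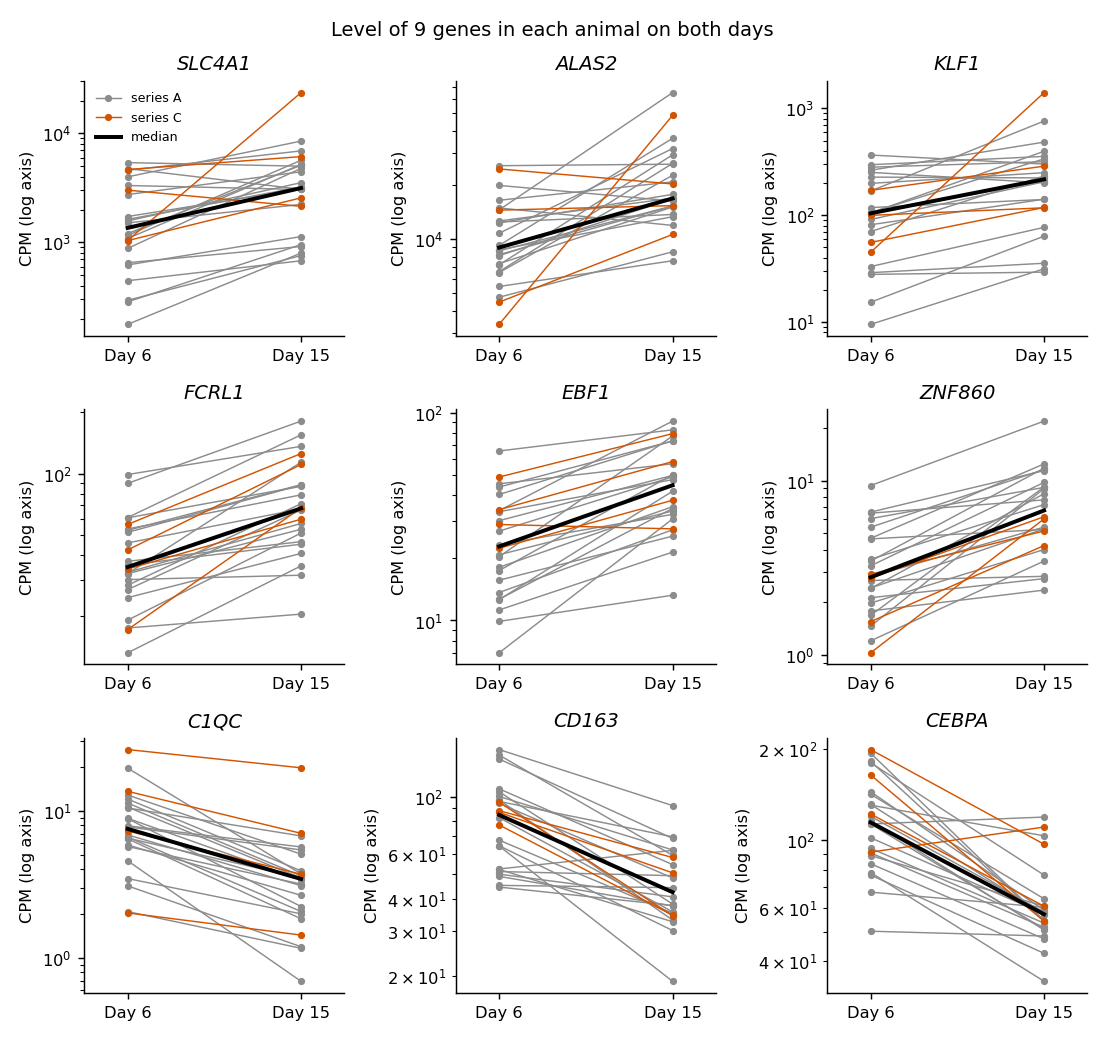
CPM on a log axis (y) on Day 6 and Day 15 (x) for 9 genes, with 1 line per animal (grey, series A; orange, series C) and the median in black. The median of SLC4A1, ALAS2, KLF1, FCRL1, EBF1 and ZNF860 is higher on Day 15 and that of C1QC, CD163 and CEBPA is lower.

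Complement C1q genes headed the decreases among genes named by size. C1QA, C1QB and C1QC encode the chains of the molecule that starts the classical complement pathway, and lie side by side on the minus strand of chromosome 1 (Mmul_10, 202117786 to 202142742). C1QB ranged from 2.15 to 50.0 CPM on Day 6 (median 11.9) and from 1.90 to 26.7 CPM on Day 15 (median 4.82). It was lower on Day 15 in 23 of 24 animals, by a log2 change of -1.23 ± 0.12 (adjusted p = 9.47e-08). C1QC changed by -1.22 ± 0.12 and C1QA by -1.21 ± 0.12, each lower in 24 of 24 animals. Of the complement list 7 of 15 fell and 0 rose (median -0.49), among them the receptor genes C5AR1, C5AR2 and C3AR1. In series A 8 fell (median -0.65). CFD, complement factor D, decreased by 0.67 on the log2 scale, but changed by -0.88 in series A and 0.45 in series C.

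Monocyte genes fell in the same direction: 4 of 18 tested fell and 0 rose (median -0.44), and the list mean was below 0 in 24 of 24 animals. In series A 5 fell (median -0.44). CD163, the hemoglobin scavenger receptor of monocytes and macrophages, ranged from 44.4 to 152.7 CPM on Day 6 (median 84.8) and from 19.0 to 92.3 CPM on Day 15 (median 42.4). The days overlapped, and it was lower on Day 15 in 23 of 24 animals, by a log2 change of -0.82 ± 0.10 (adjusted p = 1.46e-06). VCAN, a proteoglycan gene, changed by -0.71 ± 0.13.

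Of the mature neutrophil genes 12 of 20 fell and 0 rose (median -0.63), and of the granule genes 6 of 18 fell and 0 rose (median -0.52). In series A the counts were 12 and 6, with medians of -0.66 and -0.50. For the granule list 10 genes were called without B1502, and its median was 0.32 in series C, -0.12 in females and -0.80 in males. FPR2, a formyl peptide receptor, ranged from 6.19 to 62.8 CPM on Day 6 (median 25.5) and from 3.54 to 30.2 CPM on Day 15 (median 12.6), a change of -1.06 ± 0.16 (adjusted p = 1.68e-05). The calgranulin genes S100A12 and S100A8 changed by -1.22 ± 0.38 and -1.002 ± 0.29, in 18 and 15 of 24 animals, fewer than for FPR2 (22 of 24). In the joint scaling of days used below, S100A12 was low, with medians of 1.62 CPM on Day 6 and 0.90 on Day 15. Its highest Day 6 value was 22.7 CPM. S100A8 reached 924 CPM on Day 6 against a median of 89.1. The antimicrobial peptide gene CAMP changed by -0.89 ± 0.13 in 23 of 24 animals. AZU1, PGLYRP1 and MMP9 fell over all animals and in series A (-1.01, -1.16 and -0.80), but their values in series C were 0.33, 1.07 and 0.12. CSF3R, the granulocyte growth factor receptor, changed by -0.33 ± 0.13 and did not pass. The mean change of the mature neutrophil list ran from -2.52 to 0.55 and was above 0 in 5 animals. Among the largest decreases outside the lists, CEBPB changed by -1.15 ± 0.16 and CEBPA by -0.90 ± 0.10, each in 22 of 24 animals, although CEBPB changed by -0.10 in series C. The others were PTX3 (-0.89 ± 0.14), GPR27 (-0.86 ± 0.13) and SELENOP (-0.85 ± 0.11).

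Of the p53 targets, which irradiation induces, 3 of 31 fell and 0 rose (median -0.19), and the list mean was below 0 in 24 of 24 animals. In series A 4 fell (median -0.13). EDA2R, a receptor of the tumor necrosis factor family, ranged from 0.74 to 6.08 CPM on Day 6 (median 2.29) and from 0.35 to 2.36 CPM on Day 15 (median 1.02). It was lower in 24 of 24 animals, by -1.10 ± 0.13 (adjusted p = 1.46e-06). TNFRSF10B changed by -0.64 ± 0.10, and PHLDA3 by -0.59 ± 0.11 (-0.73 in series A, 0.41 in series C). CDKN1A, which encodes the cell cycle inhibitor p21, changed by -0.19 ± 0.08, and MDM2 by -0.36 ± 0.09. Neither passed.

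Many other lists held few or no genes past the threshold, against the background of 3.49% and 1.33%. Some still leaned lower when no fold limit was set. By adjusted p alone 7 of 13 glucocorticoid genes were lower and 0 higher (median -0.29, list mean below 0 in 22 of 24 animals). Among 22 immediate early genes 11 were lower and 2 higher (median -0.20), against 1840 lower and 2853 higher of all 13751. No tested gene passed in the progenitor (14 genes), T cell receptor (20), cytotoxic lymphocyte (24), MHC class II (12), basophil (8), platelet and megakaryocyte (26), immediate early (22), heat shock (11), ribosomal protein (72) and proteasome (31) lists. CD3E of the T cell receptor changed by -0.33 ± 0.06 in 22 of 24 animals, under the fold limit. In the DNA replication list 1 of 32 fell, TYMS (-0.75 ± 0.09), and in the mitosis list 1 of 33, BIRC5 (-0.64 ± 0.12). LRRN3 of the naive lymphocyte list, the 1 of 19 to rise, changed by 0.83. In the iron list TFR2 and NCOA4 rose (2 of 12), and in the eosinophil list ALOX15 and IL5RA (2 of 8, and 0 in series A). CMPK2 was the 1 of 40 interferon genes to rise (0.84 ± 0.16), CRISPLD2 the 1 of 13 glucocorticoid genes to fall (-1.07 ± 0.20), and of 14 clock genes BHLHE41 rose and NFIL3 fell. Of 2 tested skin and vessel wall genes TEK fell (-0.86 ± 0.17). Of 42 tested genes that the study used in its Day 15 models 14 rose, and of 46 from its Day 6 models 2 rose and 4 fell. The study chose those genes on these samples, so they are not independent evidence of a direction.

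Day 9 samples of the same 24 animals split the shift into its steps. From Day 6 to Day 9, 446 genes were higher (3.24%) and 245 lower (1.78%). That split depended on scaling: with TMM it was 275 higher and 350 lower. From Day 9 to Day 15, 411 genes changed, 19 of them lower (0.138%) and the others higher (2.85%). The steps share the Day 9 samples, so their values are set side by side only. Of the 23 red cell membrane genes 0 rose in the first step (median -0.19) and 20 rose in the second (median 0.97). For globin and heme 14 of 20 rose in the second step, for reticulocyte maturation 17 of 25 and for the regulators 8 of 15, with 0 in the first. SLC4A1 changed by -0.12 and then by 1.27. The complement list had its decreases in the first step (6 of 15 lower, then 0), as did the mature neutrophil (6, then 0), granule (7, then 0) and monocyte (3, then 1) lists. C1QB changed by -0.92 and then by -0.31. The medians of the B cell list were 0.27 and 0.30, but 2 of 26 genes passed in the first step and 0 in the second. EDA2R changed mostly in the second step (-0.27, then -0.84).

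Platelet and megakaryocyte genes fell and rose again within the span. No member passed between Day 6 and Day 15 (median -0.08, and -0.20 in series A), but 19 of 26 were lower on Day 9 than on Day 6 (median -0.72) and 16 were higher on Day 15 than on Day 9 (median 0.65). PPBP, a platelet chemokine gene, had median levels of 1920.7, 1055.5 and 1503.5 CPM on Day 6, 9 and 15.

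**Figure D4:**
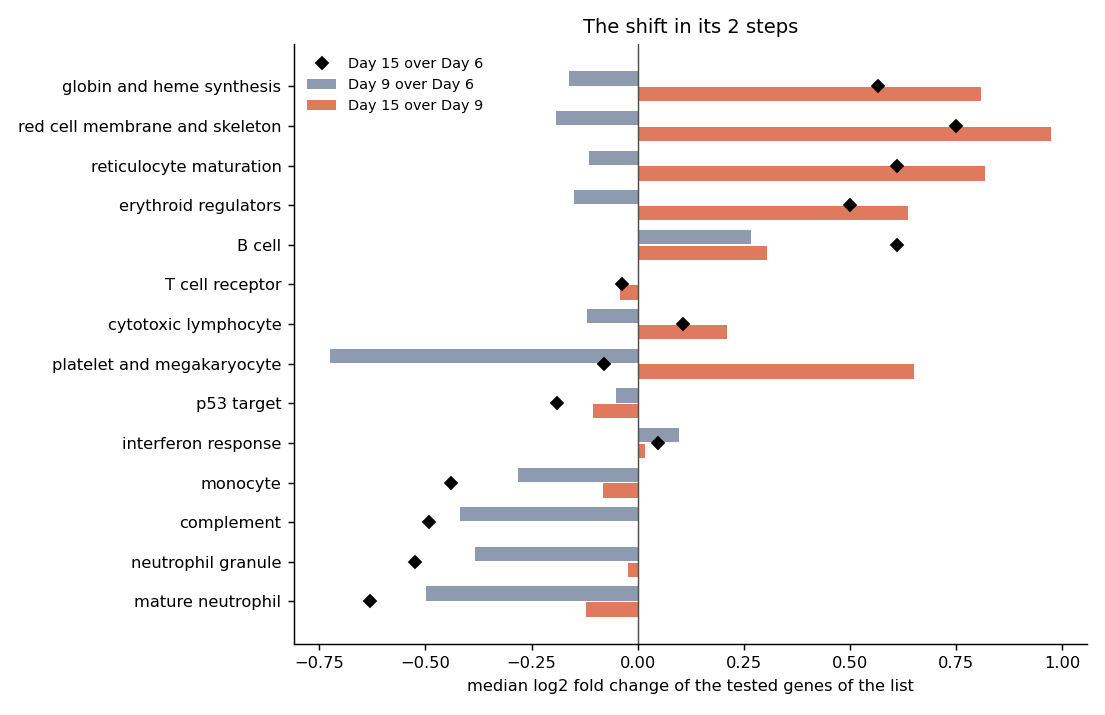
Median log2 fold change over the tested genes of each list (x axis) from Day 6 to Day 9 (grey bars), from Day 9 to Day 15 (orange bars) and from Day 6 to Day 15 (diamonds). Red cell medians are below 0 in the first step and above 0 in the second, and the platelet list goes from -0.72 to 0.65.

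To place the days in time, 144 libraries of these animals from Day -2, 3, 6, 9, 15 and 21 were scaled together, so CPM differ slightly from those above. The mean level of the B cell list, relative to each animal's own Day -2 sample, had a median of -1.10 on Day 6 and -0.55 on Day 15, and was above the Day -2 level in 1 and 3 of 24 animals. FCRL1 had medians of 97.6 CPM on Day -2, 36.2 on Day 6 and 70.3 on Day 15, and 71.9 by Day 21. The membrane list was above Day -2 in 24 of 24 animals on both days, with medians of 1.20 and 1.59. Complement went from 0.74 to 0.27, with 24 and then 19 animals above Day -2, and p53 targets from 0.24 to 0.05. C1QB had medians of 3.96 CPM before irradiation, 31.8 on Day 3, then 12.3 on Day 6 and 5.005 on Day 15.

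**Figure D5:**
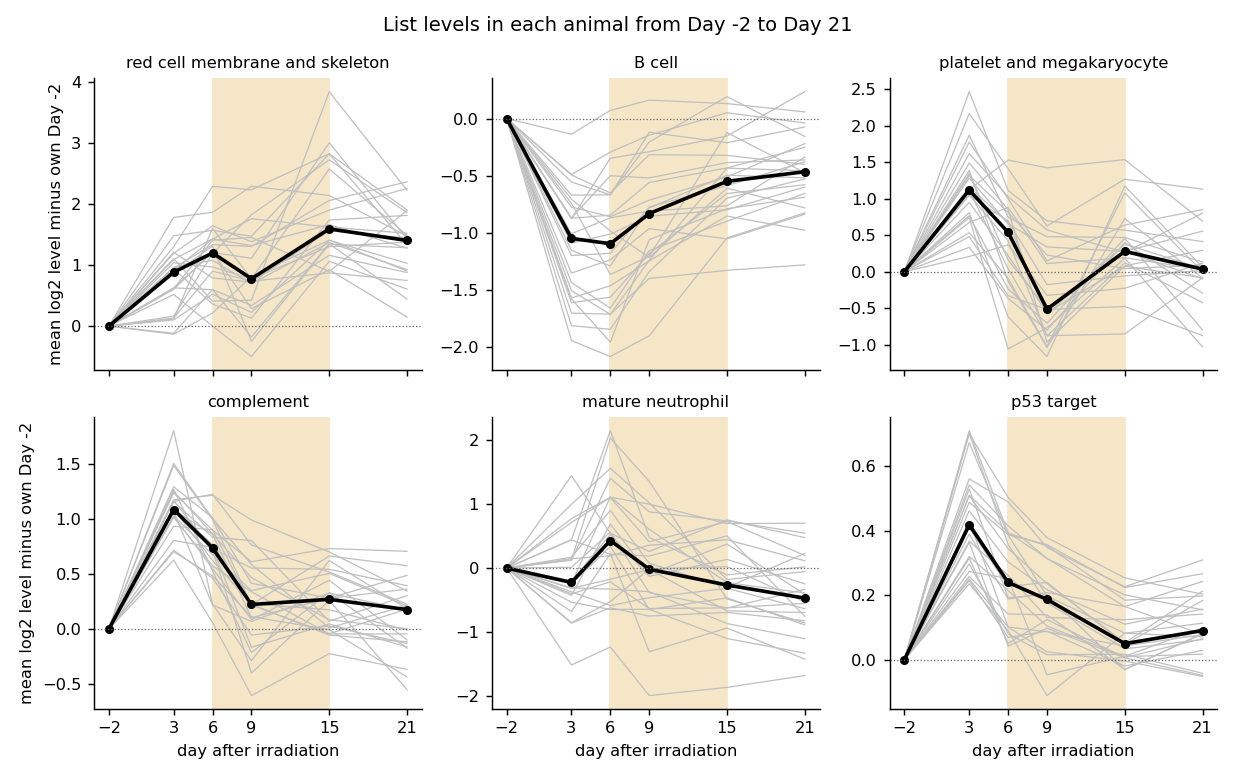
Mean log2 level of 6 lists minus the animal's own Day -2 level (y axis) by day after irradiation (x axis), with 1 grey line per animal and the median in black. The shaded span runs from Day 6 to Day 15, in which the B cell median goes from -1.10 to -0.55 and the complement median from 0.74 to 0.27.

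The shift was compared between doses and between sexes. These tests had no fold limit. By edgeR 0 genes (0%) differed between doses, with 2228 at an unadjusted p under 0.05 and a lowest adjusted p of 0.247. DESeq2, which kept 3354 genes for adjustment, called 89 of them (2.65%). In series A, where 20 animals hold both doses, 686 genes had an unadjusted p under 0.05 and 0 passed. Over all 24 animals, membrane list medians were 0.61 at 9.8 Gy and 0.88 at 10.7 Gy. Those of the B cell list were 0.48 and 0.76. The 10.7 Gy values include the 4 animals of series C. Series C medians were 0.97 for both lists, against 0.68 and 0.53 in series A. In these 4 animals dose and series cannot be told apart, and the dose medians were not taken in series A alone. Between sexes 0 genes (0%) differed by edgeR, with 531 at an unadjusted p under 0.05, and 0 by DESeq2, with 650. Mature neutrophil medians were -0.44 in females and -0.82 in males. A missed threshold does not show that the groups shifted alike.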

How the data were processed

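Per the labels, whole blood RNA was sequenced from macaques bled at intervals. The authors trimmed reads with cutadapt 2.10, aligned them with STAR 2.7.6a to Mmul_10 and counted them with Subread 2.0.1. The deposited count table holds whole, unscaled counts of 21070 genes. The authors' deposited log2 table (16730 genes, upper quartile scaling) was used as an alternative only. No value column was left unmatched to a sample (0). Strand use in counting was not given in the sources used here.

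The tests covered the 13751 genes that reached 3 counts in 80% or more of all 304 samples. Day 15 was compared with Day 6 by edgeR 4.0.16 (quasi-likelihood, upper quartile scaling, animal as block, Benjamini-Hochberg over all genes; R 4.3.3). The pairing comes from the animal number in the labels. Correlations of deviations within animals had a median of 0.488 (-0.0154 to 0.666) against -0.0194 between animals. The lowest was that of B2504, the animal with the highest mean change of each red cell list. For 22 of 24 animals the Day 6 library was closest to the Day 15 library of the same animal. Log2 CPM used a prior count of 2. Named genes were the 10 largest changes each way (at least 5 CPM, same direction in 90% of animals, annotated symbol), for each of 32 lists the 3 largest changes past the threshold and the member with most reads, and 5 fixed genes; examples from the list counts were added after their values were seen. Members and lists were chosen with earlier results of these data known. Alternatives used TMM, DESeq2 1.42.0, limma 3.58.1, other filters, no block, and subsets of animals. The comparison of Day 15 with Day 6, the dose and sex comparisons and the Day 9 steps were tried on simulated data. The comparison between library series and the dose comparison within series A were added after the data were seen. Those 2 were not tried on simulated data. Tables and figures used Python 3.11.15, pandas 2.3.3, NumPy 2.4.6 and Matplotlib 3.10.9.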

Additional observations from a re-analysis of the deposited data

Results flagged for a closer look

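The change from Day 6 to Day 15 differed between library series A and C in 4904 genes, tested as an interaction of day and series with no fold limit. Series C held 4 animals, all at 10.7 Gy, and the cause of the difference was not tested.

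Within dose and sex groups of 6 animals, mean changes of 9 lists were checked for a single animal far from the others, in 36 groups, of which chance flags about 1 in 20. It was found in 2. The erythroid regulator mean of B2003 was 0.86, against 0.11 to 0.37 in the other 10.7 Gy males. The neutrophil granule mean of B1502 was 1.48, against -0.51 to 0.15 in the other 9.8 Gy females.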

How the results depend on the processing

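Leaving out 1 animal gave 430 to 520 higher genes (lowest without B2504) and no fewer than 145 lower genes. The counts moved by over 1.5 times in subsets of animals: 863 higher and 766 lower in series C alone, 303 higher at 9.8 Gy, 183 higher and 48 lower in females, and 332 lower in males. These subsets hold fewer animals. DESeq2 called 89 genes for dose. From Day 6 to Day 9, 275 genes were higher with TMM and 287 with DESeq2. Without the replicate block, 31 genes were lower from Day 9 to Day 15. The replicate block changed the main comparison little: 391 higher and 184 lower without it. In series C alone 6 named genes had the opposite sign: HBA (-2.02), CFD (0.45), AZU1 (0.33), PGLYRP1 (1.07), MMP9 (0.12) and PHLDA3 (0.41). The cause was not tested. Of 67 called named genes, 56 kept their call whichever animal was left out. In series A BIRC5, ALOX15, IL5RA, DENND2A and GATA1 came under the fold limit. In the iron, DNA replication, eosinophil, glucocorticoid and clock lists, with 1 or 2 called genes each, leaving out 1 animal gave 1 or 2. The mitosis list, with 1 called gene, had 0 without B2005. The immediate early list had 1 called gene without B1502, and the ribosomal protein list 1 without B1505, against 0 in all animals. Shallow Day 6 libraries of series C limit the precision for low genes.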
